A study of Mus musculus with 4 samples.

Results

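The lateral nasal process was compared with the maxillary process of wild-type (WT) mouse embryos at E11.5, where E counts embryonic days, by bulk RNA-seq. Each process is represented by 1 library made from mixed cells. The compared genes are those that reached 5 CPM in at least 1 of both libraries and stood at least 2-fold apart. CPM are counts scaled to a total of 1000000 on gene entries, and folds for this choice were taken after adding 0.5 CPM. Of 43346 gene entries, 11865 reached the minimum level, and 348 of these (2.93%) were 2-fold apart. Of the 348 genes, 219 (1.85% of the genes tested) were higher in the lateral nasal process, and the other 129 (1.09%) in the maxillary process. The series also holds 1 library each of the medial nasal and mandibular processes, which played no part in the choice and serve as a second nasal and a second first arch library. Below, LNP and MNP stand for the lateral and medial nasal libraries, and Mx and Md for the maxillary and the mandibular one. The sources used here do not give the strain, the number of embryos dissected or pooled, or their sex. The source label of the medial nasal library carries the abbreviation LNP in brackets, while its title names the medial nasal process.

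The facial processes are outgrowths of neural crest mesenchyme covered by surface ectoderm. The lateral nasal process flanks the olfactory pit and forms the side of the nose, and the maxillary process, a part of the first pharyngeal arch, forms most of the upper jaw and the secondary palate. They meet along the nasolacrimal groove. Frontonasal mesenchyme is known for genes of the Alx and Pax3/Pax7 families, and first arch mesenchyme for Dlx, Lhx6/Lhx8 and Barx1, which act in patterning of the jaws and teeth.

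Because each process had 1 library, replicate tests could not be made, and p-values are left out. Every interval below is an exact 95% interval of a ratio of 2 counts and covers counting error only, not variation between embryos or dissections. A fold is followed by its interval, and a pair of levels joined by "against" gives LNP first and Mx second. The libraries held 16163913 (lateral nasal) and 15385123 (maxillary) counts, so that 5 CPM corresponded to 80.8 and 76.9 counts. The median log2 difference over the genes tested, lateral nasal minus maxillary, was 0.02. In bulk tissue, fewer cells of a type and less RNA per cell cannot be told apart.

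The 219 genes higher in the lateral nasal process had a median of 11.7 CPM there and 3.32 CPM in Mx, and 92 of them lay under 10 CPM. The 129 genes higher in the maxillary process had medians of 18.7 CPM in Mx and 4.27 CPM in LNP, with 43 of them under 10 CPM, and 22 reached 100 CPM, as against 10 in the other direction. A difference of at least 4-fold was seen for 58 genes higher in LNP and 34 higher in Mx. The lower end of the counting interval stayed at or above 2-fold for 143 and 87 genes.

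**Figure D1:**
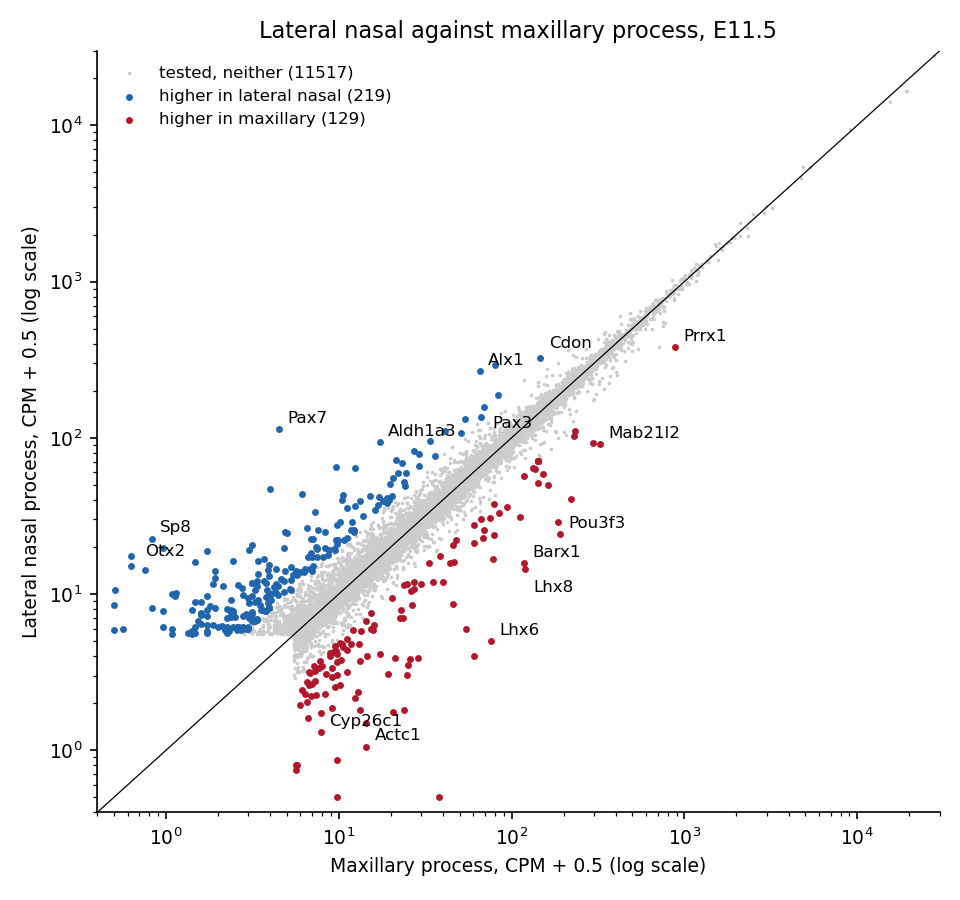
Level of each gene tested in the maxillary (x axis) and lateral nasal (y axis) library, both as CPM + 0.5 on log scales; the diagonal marks equal levels. Blue points are the 219 genes higher in the lateral nasal process and red points the 129 genes higher in the maxillary process, with Pax7 (113 against 4.03 CPM) and Lhx6 (4.52 against 75.7 CPM) far from the diagonal.

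The frontonasal genes lay on the lateral nasal side. This and all later gene lists were chosen with earlier results of these data known, so their counts and ranks are no separate check. Over all genes tested, 1.85% were higher in LNP and 1.09% in Mx. Of 11 genes on the frontonasal mesenchyme list, all of them tested, 5 were higher in LNP and 0 in Mx, with a list median of 0.73 on the log2 scale against 0.02 over all genes tested. Pax7, a paired-box factor of neural crest (chromosome 4, 139737062 to 139833528, in GRCm38 like all gene positions here), had 113 CPM in LNP, 4.03 in Mx, 21.6 in MNP and 3.44 CPM in Md. It was 28.1-fold (21.8 to 36.8) higher in the lateral nasal than in the maxillary process and also stood above the medial nasal library. Alx1, a homeobox factor needed for the midface (chromosome 10, 102998707 to 103030215), reached 268 CPM in LNP and 272 CPM in MNP but 65 in Mx and 38.4 CPM in Md. Its lateral nasal to maxillary difference was 4.12-fold (3.85 to 4.42). Pax3, the paralog of Pax7, had 156 against 68.5 CPM (2.28-fold, 2.12 to 2.45), and the AP-2 factor Tfap2b 110.0 against 40.6 CPM (2.71-fold, 2.47 to 2.97). Alx4 (302 against 186 CPM) and Msx1 (267 against 236 CPM), both homeobox factors of facial mesenchyme, were strongly expressed in both processes and less than 2-fold apart.

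The oral mesenchyme genes of the first arch lay on the maxillary side. Of 17 tested genes on that list, 10 were higher in the maxillary process and 0 in the lateral nasal process, with a list median of -1.20 on the log2 scale. Lhx6 and Lhx8 are LIM homeobox factors of the oral side of the arch. Lhx6 (chromosome 2, 36081953 to 36105408) had 75.7 CPM in Mx, 43.6 in Md, 4.52 in LNP and 3.48 CPM in MNP, a maxillary to lateral nasal difference of 16.8-fold (13.2 to 21.5). Lhx8 (chromosome 3, 154306294 to 154330659) had 119.7 CPM in Mx, 65.9 in Md, 13.9 in LNP and 15.7 CPM in MNP (8.64-fold, 7.52 to 9.97). For both genes each first arch library lay above each nasal library. Barx1, a homeobox factor of molar and palatal mesenchyme (chromosome 13, 48662998 to 48666507), had 118 CPM in Mx and 118 CPM in Md, against 15.3 CPM in LNP and 7.94 CPM in MNP (7.67-fold, 6.71 to 8.79).

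The distal-less genes Dlx1 and Dlx2, neighbours on chromosome 2 that pattern the arch along its proximal to distal axis, differed in the same direction. Dlx1 had 3.53 against 60.4 CPM (17.1-fold, 13.1 to 22.8) and Dlx2 1.67 against 11.9 CPM (7.12-fold, 4.74 to 11.1). The odd-skipped factors of palatal mesenchyme followed, with Osr2 at 3.34 against 25.4 CPM (7.61-fold, 5.71 to 10.3) and Osr1 at 11.51 against 34.7 CPM (3.02-fold, 2.55 to 3.58). Prrx1, a broad mesenchymal homeobox factor, was the most abundant of the 10 by count, at 876 CPM in Mx and 381 CPM in LNP (2.3-fold, 2.23 to 2.37). Its relative Prrx2 was not called (71.7 against 65.1 CPM), and of the twist factors Twist2 was higher (27.3 against 60.4 CPM) while Twist1 (223 against 259.8 CPM) was not called.

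Pou3f3, a POU factor of the maxillary process (chromosome 1, 42695768 to 42703176), was lowest in the lateral nasal library but did not follow the division into nasal and first arch tissue. It had 190.0 CPM in Mx, 23.6 in LNP, 148 in MNP and 56.2 CPM in Md. The maxillary level was 8.04-fold (7.22 to 8.97) above the lateral nasal level. The adjacent noncoding gene Pantr1, which ends 0.926 kb from it, had the same order, with 24.6 CPM in Mx, 17.5 in MNP, 4.17 in Md and 3.03 CPM in LNP. The genes Pax7, Alx1, Barx1, Lhx8 and Pou3f3 had been picked as markers with these data known, so their direction is no separate check of the labels.

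T-box factors made up a second group of maxillary transcription factors, with 3 of 6 tested genes higher there and 0 higher in the lateral nasal process. Tbx15, known for skeletal mesenchyme, had 16.3 against 77 CPM (4.72-fold, 4.12 to 5.41), Tbx3 30.6 against 111 CPM (3.62-fold, 3.28 to 4.01) and Tbx18 8.06 against 26.1 CPM (3.24-fold, 2.66 to 3.99). Tbx2, the paralog of Tbx3, was at 176 against 299 CPM and was not called. Of 34 tested genes on the list of other homeobox factors, 4 were higher in each process. Shox2, a homeobox factor of palate and limb mesenchyme, was at 45 CPM in Mx and 8.1 CPM in LNP (5.55-fold, 4.6 to 6.74). Meox2 (2.17 against 6.5 CPM), known for muscle precursors, and Pax1 (10.9 against 23.3 CPM) were also higher in the maxillary process. Outside the lists, Sim2, a bHLH-PAS factor, was low in both nasal libraries, with 9.29 CPM in Mx and 18.6 in Md against 0.371 in LNP and 1.06 CPM in MNP (25-fold, 11.2 to 69.4). The Mab21-like gene Mab21l2, known from eye and face development, reached 90.8 against 322 CPM (3.55-fold, 3.35 to 3.77).

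**Figure D2:**
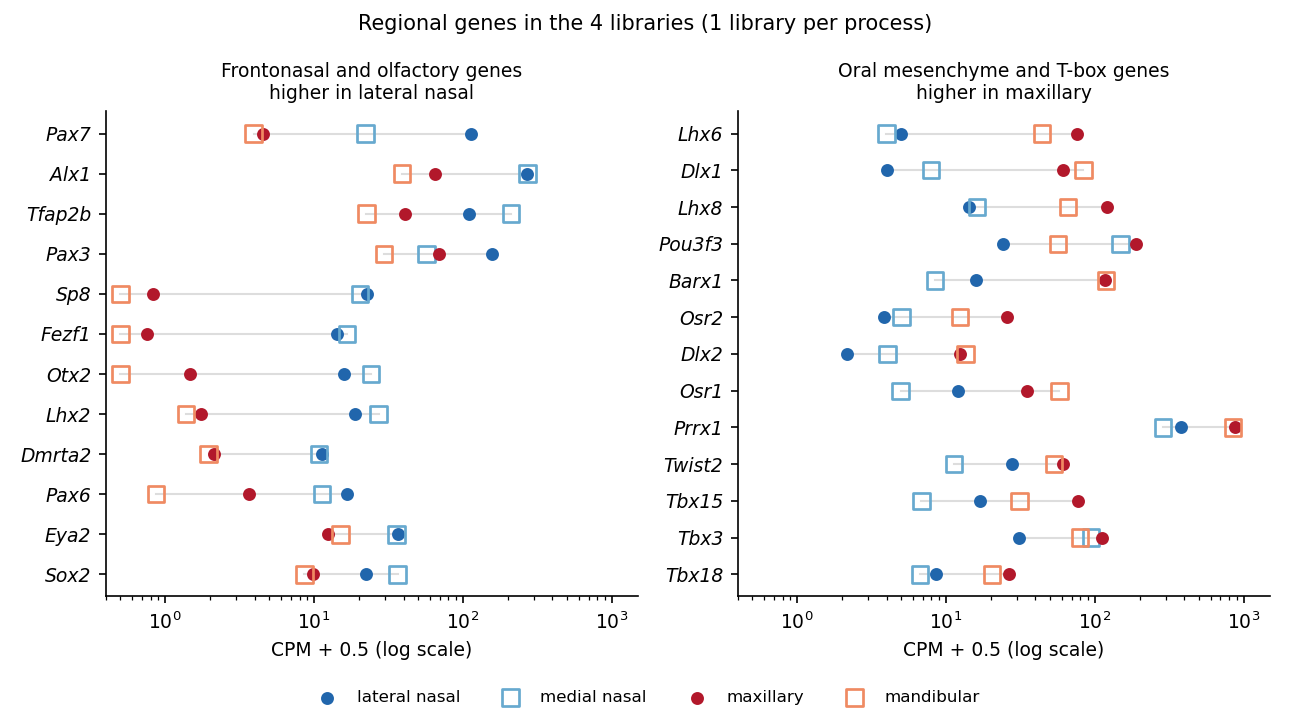
CPM + 0.5 (log scale) of 12 genes higher in the lateral nasal process (left) and 13 higher in the maxillary process (right), with 1 point per library; filled circles are the 2 compared libraries and open squares the medial nasal and mandibular libraries. The medial nasal square lies near the lateral nasal circle for Alx1 and Sp8 and near the maxillary circle for Pou3f3 and Tbx3.

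The olfactory placode and pit gave the highest share of genes on the lateral nasal side of any list, all chosen with earlier results known. That side held 1.85% of all genes tested. Of 13 tested, 8 were higher in LNP and 1 in Mx, and the list median was 1.56. Sp8, a zinc finger factor needed for outgrowth of the nasal processes (chromosome 12, 118846329 to 118852576), had 22.1 CPM in LNP, 0.325 in Mx and 19.9 CPM in MNP and 0 counts in the mandibular library, where 3 counts correspond to 0.219 CPM. Its maxillary value rested on 5 counts, and the difference was 68.2-fold (28.9 to 211). Fezf1, which olfactory neurons need, had 13.8 against 0.26 CPM (53.1-fold, 20.4 to 196). Otx2, a homeobox factor of the anterior head, had 15.5 against 0.975 CPM (15.9-fold, 9.47 to 28.9), and the LIM homeobox factor Lhx2 18.3 against 1.23 CPM (14.8-fold, 9.33 to 25). Pax6, a factor of eye and nasal placodes, stood at 16.2 against 3.18 CPM, Dmrta2 at 10.8 against 1.62 CPM, Eya2 at 35.9 against 11.9 CPM and Sox2 at 21.8 against 9.36 CPM. The exception was Emx2, with 6.18 against 13.9 CPM. Outside the list, Gata2 was at 43.4 CPM in LNP, 5.59 in Mx, 61.3 in MNP and 1.39 CPM in Md (7.77-fold, 6.2 to 9.84).

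The olfactory genes Otx2, Pax6, Dmrta2 and Sox2 are also on the list of forebrain neuroepithelium, of which 4 of 7 tested genes were higher in LNP and 2 in Mx. Of the 27 genes on it, Nkx2-1 and Nkx2-4 had 0 counts in the lateral nasal library and Gsx2, Nkx2-4 and Vax1 in the maxillary library. The summed level of that list was 338 CPM in LNP and 199.6 CPM in Mx, of which Lix1 alone held 247 and 157 CPM. The part of brain tissue in these differences was not tested.

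Neuronal genes were also higher in the lateral nasal process, 10 of 34 tested against 2 in the maxillary process, with a median of 0.41 and a summed level of 1521 against 1268 CPM. The 10 included early neuronal factors, such as Neurod1 (8.41 against 1.1 CPM, 7.61-fold, 4.58 to 13.5), Nhlh2 (6.99 against 1.1 CPM) and Myt1l (7.61 against 0.325 CPM, the Mx level from 5 counts). They also included the neuronal RNA-binding proteins Elavl3 (12.9 against 2.92 CPM) and Elavl4 (22.1 against 6.37 CPM). The neurofilament genes were the 2 exceptions. Nefm had 20.6 CPM in Mx and 3.4 CPM in LNP (6.06-fold, 4.54 to 8.22), and the overlapping Nefl 22.1 CPM in Mx and 6.56 CPM in LNP (3.37-fold, 2.7 to 4.23). In MNP, Nefm had 19.5 CPM and Nefl 22.5 CPM, and in Md 12.4 and 17.7 CPM. MNP also had 11.7 CPM of Neurod1 and 12.9 CPM of Nhlh2, so it held both groups of genes. Neurofilaments fill the axons of larger neurons, and the neurogenic factors above mark newly formed ones. The stage of the neurons in each library was not tested. Of the 73 neuronal genes, 3 had 0 counts in the lateral nasal library (Dbh, Pou4f2 and Tlx3) and 3 in the maxillary library (Dbh, Neurod6 and Slc32a1).

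Of 32 tested epithelial genes, 8 were higher in LNP and 0 in Mx, although the list median was 0.04 and the summed level 875 against 763 CPM. The paired keratins Krt8 (49.9 against 19.2 CPM, 2.6-fold, 2.28 to 2.99) and Krt18 (41.9 against 14.6 CPM, 2.86-fold, 2.46 to 3.35), which form filaments together, were joined by the adhesion gene Epcam (65.4 against 28.8 CPM, 2.27-fold, 2.03 to 2.54) and the claudins Cldn3, Cldn6 and Cldn7. The others of the 8 were the adaptor subunit gene Ap1m2 and the serine protease gene Prss8. The stratified epithelial genes Trp63 (42.2 against 50.3 CPM) and Krt14 (33.7 against 65.3 CPM) were not called. Krt6a was the epithelial marker at 0 counts, in the maxillary library. The part of the share of epithelium or of neurons in each dissection was not tested.

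Markers of the eye were present in both libraries. Of 5 tested lens, retina and pigment genes, 3 were higher in LNP and 0 in Mx. The lens crystallin Cryaa had 12.7 CPM in LNP and 4.94 CPM in Mx (2.57-fold, 1.96 to 3.39) and 0 counts in the medial nasal and mandibular libraries. Cryba1 had 5.13 against 1.23 CPM and the pigment gene Pmel 9.22 against 2.66 CPM. The summed level of the 32 eye genes was 70.2 CPM in LNP, 34.1 in Mx, 22.1 in MNP and 25.1 CPM in Md. Of these genes 4 had 0 counts in LNP (Birc7, Crygs, Lim2 and Rpe65), 3 in Mx (Lim2, Rlbp1 and Rpe65), 14 in MNP and 14 in Md. The part of eye tissue in the lateral nasal differences was not tested.

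Skeletal muscle gave the highest share of genes on the maxillary side of any list, all chosen with earlier results known. That side held 1.09% of all genes tested. Of 10 tested, 9 were higher in the maxillary and 0 in the lateral nasal process, with a median of -2.74. Actc1, an actin of early striated muscle (chromosome 2, 114047282 to 114053548), had 13.9 CPM in Mx, 41.7 in Md, 0.557 in LNP and 0.605 CPM in MNP (25-fold, 12.9 to 55.4). The embryonic myosin Myh3 had 1.3 against 23.2 CPM (17.9-fold, 11.51 to 29.2), and titin, Ttn, 28.5 against 185 CPM (6.5-fold, 5.89 to 7.19). Myog, the bHLH factor that starts muscle differentiation (chromosome 1, 134289989 to 134292548), had 0.309 against 5.13 CPM (16.6-fold, 6.82 to 52.5), the LNP level from 5 counts. The exception was Ryr1 (13.2 against 13.2 CPM). The summed level of all 39 muscle genes was 332 CPM in Mx and 61.6 CPM in LNP, with Myf6, Mymk, Smpx, Tcf21 and Tnnc2 at 0 counts in the latter and none at 0 in the maxillary library. Each of the 9 genes was higher still in the mandibular than in the maxillary library. The smooth muscle actin Acta2 also had 1.3 against 12.7 CPM (9.81-fold, 6.24 to 16.2).

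The sequences before the start of both muscle genes are shown because they hold the elements for which muscle promoters are known, the CArG box that the serum response factor binds and the E-box CANNTG that bHLH factors bind. Each run is the 250 bases before the RefSeq gene start, 5′ to 3′ on the gene's strand (GRCm38.p6), with matches on either strand in capitals. For Actc1, on the minus strand at chr2:114052876-114053125, the capitals mark the CArG box, whose first base lies 47 bases before the RefSeq start. That whole run lies inside the GENCODE span given above (114047282 to 114053548), whose start differs from the RefSeq start. For Myog, on the plus strand at chr1:134289754-134290003, they mark 2 E-boxes, 138 and 12 bases before the RefSeq start. The end of the Myog run, with the nearer E-box, lies past its GENCODE start at 134289989.
Actc1: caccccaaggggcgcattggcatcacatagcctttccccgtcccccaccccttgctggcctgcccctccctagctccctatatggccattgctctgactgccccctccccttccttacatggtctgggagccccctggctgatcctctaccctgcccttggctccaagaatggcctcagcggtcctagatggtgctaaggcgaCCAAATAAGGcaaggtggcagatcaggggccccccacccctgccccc
Myog: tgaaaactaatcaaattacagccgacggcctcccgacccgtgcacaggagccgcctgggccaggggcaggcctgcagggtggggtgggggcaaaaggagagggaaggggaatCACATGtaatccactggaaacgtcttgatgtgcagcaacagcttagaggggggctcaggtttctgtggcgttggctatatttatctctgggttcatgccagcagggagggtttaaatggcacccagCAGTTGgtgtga
A CArG box was found before 126 of 8922 tested genes with a promoter sequence (1.41%), before 1.62% of all 27025 genes in the promoter table, before 6 of 151 genes higher in the lateral nasal process (3.97%) and before 2 of 84 higher in the maxillary process (2.38%). CANNTG was found before 60.1% of the tested genes, 69.3% of all genes, 71.5% of genes higher in LNP and 58.3% of genes higher in Mx, so Myog shares it with most of them. A match is a run of letters and no evidence of binding, and none of the capitals overlapped a match of another motif searched here.

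Genes of Schwann cell precursors, the neural crest cells that follow nerves, were mostly higher in the maxillary process, 7 of 13 tested against 2. Sox10, the defining factor of this lineage, had 1.73 against 6.37 CPM (3.68-fold, 2.4 to 5.81) and the cadherin Cdh19 1.11 against 6.11 CPM (5.49-fold, 3.29 to 9.66). Ednrb (10.3 against 26.8 CPM) and the neurotrophin receptor gene Ngfr (17 against 38.1 CPM), which other cells use too, were higher as well. Fabp7 had 2.72 against 6.76 CPM, but 13.6 CPM in MNP and 1.97 CPM in Md. The list's 2 genes higher in the lateral nasal process were Tfap2b and Sox8, and its summed level was 547 CPM in Mx and 381 CPM in LNP. The maxillary process also had more of Bdnf (11.51 against 26.8 CPM), the ligand of a neurotrophin receptor.

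Genes that make and break down retinoic acid differed in both directions. Retinoic acid is made from retinol by a retinol dehydrogenase (Rdh10) and then by retinaldehyde dehydrogenases (Aldh1a1, Aldh1a2, Aldh1a3), and is broken down by enzymes of the Cyp26 family. Of 17 tested genes of the pathway, 3 were higher in each process. Aldh1a3 had 93.2 CPM in LNP, 16.8 in Mx, 32.2 in MNP and 3.51 CPM in Md (5.56-fold, 4.87 to 6.37). Aldh1a1 was at 11.2 CPM in LNP, 2.66 in Mx, 0.605 in MNP and 0.512 CPM in Md (4.2-fold, 2.98 to 6.05). The eye genes Cryba1 (0.454 in MNP and 0.365 CPM in Md) and Pmel (0.605 and 0.658 CPM) had the same 2 libraries highest, and the part of eye tissue in the level of Aldh1a1 was not tested. Rdh10 was at 36.4 against 16.3 CPM (2.23-fold, 1.92 to 2.6), with 24 in MNP and 27.6 CPM in Md. Aldh1a2, the third enzyme of the last step, had the opposite direction, with 67.7 CPM in Mx and 22.4 CPM in LNP (3.02-fold, 2.68 to 3.41). The breakdown enzymes Cyp26c1 (0.804 against 7.41 CPM, 9.21-fold, 5.18 to 17.8) and Cyp26a1 (1.79 against 5.85 CPM, 3.26-fold, 2.12 to 5.14) were higher in the maxillary process too. The binding protein genes Crabp1 (365 against 210.2 CPM) and Crabp2 (217 against 194 CPM) and the receptor genes Rarg (99.8 against 130.0 CPM) and Rxra (89.5 against 103 CPM) were not called.

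Cyp26a1 and Cyp26c1 are neighbours on chromosome 19, 4.4 kb apart. The sequence before Cyp26a1 is shown because it holds a DR5 repeat, the pair of hexamers to which retinoic acid receptors are known to bind. It lies at chr19:37697558-37697807 (GRCm38.p6, RefSeq, plus strand), and the capitals mark the repeat, which begins 32 bases before the gene start and was matched on the opposite strand.
Cyp26a1: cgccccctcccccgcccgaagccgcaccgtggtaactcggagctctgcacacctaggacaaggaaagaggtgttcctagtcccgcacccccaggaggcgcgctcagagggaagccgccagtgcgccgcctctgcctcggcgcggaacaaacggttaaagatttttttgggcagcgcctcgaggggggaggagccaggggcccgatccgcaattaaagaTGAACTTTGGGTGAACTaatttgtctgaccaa
A DR5 repeat was found before 5 of the 8922 tested genes with a promoter sequence (0.0560%) and 28 of all 27025 (0.104%), and Cyp26a1 was the single one among the 235 genes with such a sequence that differed between the processes. Promoter sequences were at hand for 151 of the 216 named genes higher in the lateral nasal and for 84 of the 127 higher in the maxillary process. In the 250 bases before the start, TATAAA on either strand was found before 12.6% and 16.7% of these genes, against 7.34% of all tested genes and 14.3% of all genes in the promoter table. For the genes higher in LNP and in Mx, the median ratio of observed to expected CG dinucleotides was 0.551 and 0.550. It was 0.743 for all tested genes and 0.379 for all genes in the promoter table.

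Signalling genes were called singly rather than as whole pathways. Of 50 tested Wnt genes, 3 were higher in LNP and 6 in Mx. On the lateral nasal side were the ligand gene Wnt16 (7.3 against 0.455 CPM, 16-fold, 7.55 to 40.8), the secreted inhibitor Wif1 (25.1 against 7.08 CPM, 3.55-fold, 2.86 to 4.42) and the agonist Rspo2 (78 against 28.5 CPM, 2.74-fold, 2.46 to 3.06). On the maxillary side were the ligand genes Wnt11 (4.27 against 12.5 CPM) and Wnt10b (2.66 against 6.24 CPM), the secreted inhibitors Frzb (23.4 against 78.8 CPM, 3.36-fold, 2.99 to 3.78), Sfrp2 (37.4 against 78.5 CPM) and Notum (2.88 against 7.17 CPM), and the nuclear effector Lef1. Lef1 (110.2 against 233 CPM, 2.12-fold, 2.0 to 2.24) is itself a known Wnt target, as is the membrane inhibitor Apcdd1, which had 102 against 228 CPM (2.25-fold, 2.12 to 2.38). For both genes the maxillary library was the highest of the 4, with 105 and 98.8 CPM in Md.

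In the hedgehog pathway 2 of 13 tested genes were higher in LNP and 1 in Mx. The co-receptor gene Cdon, one of the most abundant genes that differed, had 324 against 146 CPM (2.21-fold, 2.11 to 2.33), and its relative Boc (143 against 86.5 CPM) was not called. The target gene Gli1, a readout of the pathway, had the opposite direction, 21.7 against 47.1 CPM (2.17-fold, 1.91 to 2.47). Of 37 tested genes of the BMP and TGF-beta pathway, 3 were higher in the lateral nasal process, namely the ligand genes Gdf6 (9.84 against 3.77 CPM) and Gdf7 (6.56 against 1.75 CPM) and the follistatin-like gene Fstl5 (19.1 against 0.455 CPM, 42-fold, 20.1 to 105). None of the 18 tested FGF genes was 2-fold apart.

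Receptors and guidance molecules were called on both sides. The ephrin gene Efnb2 (189 against 82.4 CPM, 2.29-fold, 2.14 to 2.45) and the netrin receptor gene Unc5c (131 against 53.3 CPM, 2.46-fold, 2.26 to 2.67) were higher in the lateral nasal process. The receptor tyrosine kinase gene Ret had 9.65 CPM there, 0.65 in Mx, 4.62 in MNP and 1.17 CPM in Md (14.8-fold, 7.86 to 31.6). The protocadherin gene Pcdh10 (40 against 219.6 CPM, 5.5-fold, 5.05 to 5.99), the semaphorin co-receptor gene Plxna4 (30.2 against 74.7 CPM, 2.48-fold, 2.23 to 2.76) and the chemokine gene Cxcl14 (58.3 against 151 CPM, 2.59-fold, 2.4 to 2.79) were higher in the maxillary process. Gpr17 had 2.6 against 18.7 CPM (7.18-fold, 5.18 to 10.2).

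Matrix genes were called mostly in the maxillary process, 11 of 92 tested against 3 in the lateral nasal process, with a median of -0.06. Among them were 3 glycoproteins of mesenchyme and tendon, the tenascins Tnc (49.6 against 162 CPM, 3.27-fold, 3.02 to 3.55) and Tnn (3.4 against 28.3 CPM, 8.31-fold, 6.27 to 11.2) and periostin, Postn (92.6 against 294 CPM, 3.17-fold, 2.99 to 3.37). The small leucine-rich proteoglycan genes Dcn (5.38 against 15.2 CPM), Lum (35.4 against 93.1 CPM, 2.63-fold, 2.39 to 2.91) and Kera (2.29 against 6.82 CPM), which lie side by side on chromosome 10, were all higher in the maxillary process. Col8a2 (58.9 against 21.4 CPM, 2.75-fold, 2.42 to 3.12) was higher in the lateral nasal process. The abundant collagen genes Col1a2 (1010.0 against 1169 CPM) and Col3a1 (1376 against 1558 CPM) were not called. Of 9 tested cartilage and bone genes, Sox9, the factor that starts cartilage (40.9 against 18.5 CPM), and Alpl (18.8 against 8.84 CPM) were higher in the lateral nasal process. The other 7 were not called, among them the collagen genes Col2a1 (151 against 163 CPM) and Col9a1 (42.4 against 36.7 CPM). The summed level of that list was 403 against 412 CPM.

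**Figure D3:**
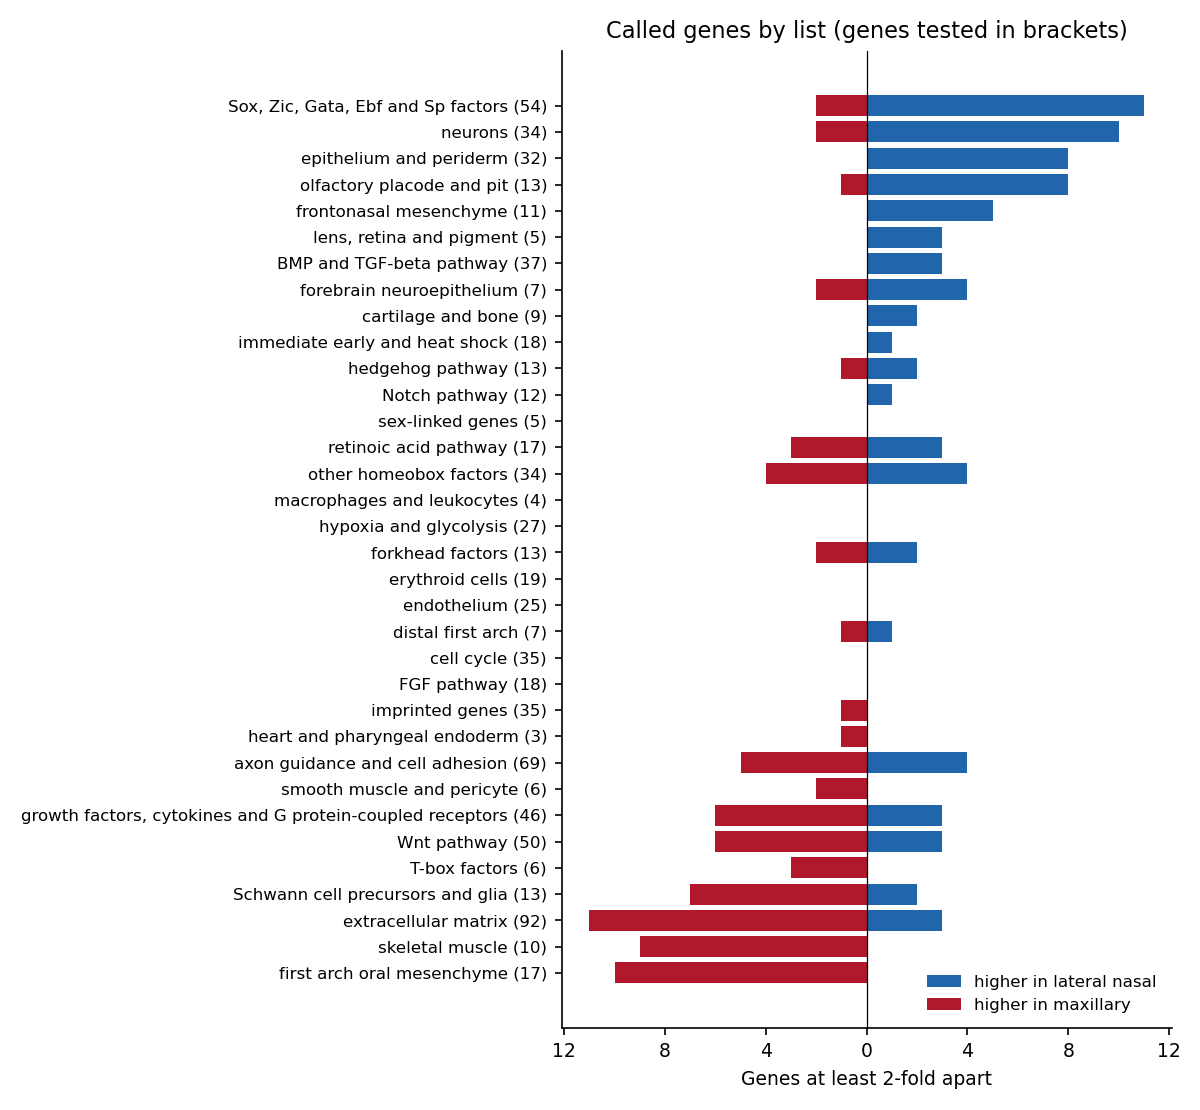
Number of genes at least 2-fold apart in each gene list, to the right for genes higher in the lateral nasal and to the left for genes higher in the maxillary process, with the number of genes tested in brackets. Oral mesenchyme (10) and skeletal muscle (9) extend to the left without a gene on the right, and epithelium (8) and frontonasal mesenchyme (5) to the right without a gene on the left.

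Forkhead genes gave 2 called genes in each direction among 13 tested, and these 4 lay on chromosomes 13 and 8, with 1 of each direction on each. Foxc1 (chromosome 13, 31806633 to 31812476) had 42.7 CPM in LNP and 10.1 CPM in Mx (4.24-fold, 3.56 to 5.08). Foxf2 (chromosome 13, 31625816 to 31631403), whose start lies 180.8 kb away, had the opposite direction, 2.66 against 10.6 CPM (3.98-fold, 2.83 to 5.71). Foxc2 (chromosome 8, 121116171 to 121118895) had 6.25 against 2.79 CPM (2.24-fold, 1.55 to 3.27). Foxf1 (chromosome 8, 121084386 to 121088144), whose start lies 31.8 kb away, again had the opposite direction, 3.53 against 14 CPM (3.96-fold, 2.95 to 5.4). The Foxc genes are known for head mesenchyme and blood vessels and the Foxf genes as hedgehog targets in mesenchyme. In the other pair of libraries Foxc1 was also higher on the nasal side (62 CPM in MNP, 14.8 in Md), while Foxf1 (24.8 and 31.8 CPM) and Foxf2 (12.9 and 20.8 CPM) were under 2-fold apart, as was Foxc2 (12.6 and 10.2 CPM). Foxf1 and Foxf2 were therefore lowest in the lateral nasal library and not low in both nasal libraries. Fendrr and Foxl1, further genes of the chromosome 8 cluster looked at after their values were seen, were under the minimum of 5 CPM in both compared libraries (0.804 against 2.14 CPM and 0.866 against 2.21 CPM).

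**Figure D4:**
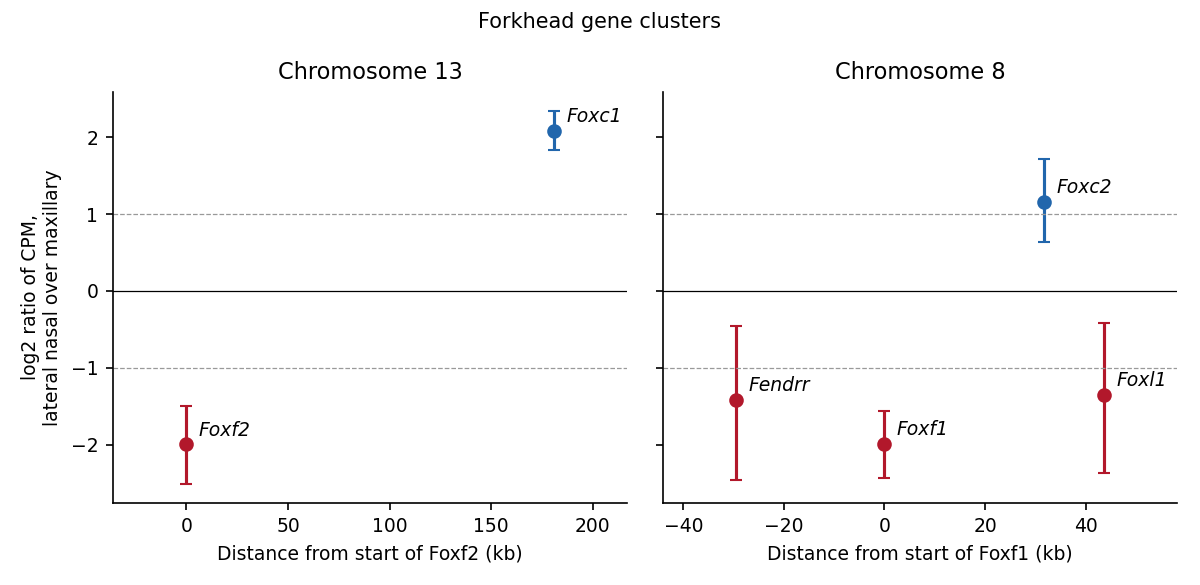
Log2 ratio of CPM, lateral nasal over maxillary, of forkhead cluster genes against the distance of their start from that of Foxf2 or Foxf1 in kb; bars are 95% intervals for counting error and dashed lines mark 2-fold. Foxc1 and Foxc2 lie above 0 and Foxf2 and Foxf1 below 0; Foxq1, with under 1 CPM in both libraries, is left out.

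Neighbouring genes were counted within 100 kb, a limit that leaves out Foxc1 with Foxf2. Other pairs farther apart were not looked at. Of the genes that differed, 325 had a symbol and a posterior mean count, a second RSEM estimate, within 10% of the expected count. Among these, 23 pairs lay within 100 kb of each other. Of the pairs, 22 had the same direction and 1, Foxf1 with Foxc2, had opposite directions. Several pairs consist of overlapping or adjoining entries, such as Lhx8 and the noncoding AI606473, 5.51 against 53.8 CPM (9.77-fold, 7.85 to 12.3), 0.162 kb apart. The noncoding Six3os1 had 46.6 against 3.51 CPM (13.3-fold, 10.1 to 17.9). Reads of overlapping entries were divided among them by RSEM.

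Outside the lists, the lateral nasal process had a large difference at Atp8b4, a phospholipid flippase gene (chromosome 2, 126320973 to 126500674), with 17.1 CPM against 0.13 CPM. The maxillary value rests on 2 counts, and the ratio was 131-fold (36 to 1090.0). The acyl-CoA synthetase genes Acsm4 (14.6 against 0.13 CPM, from 2 maxillary counts, 112-fold, 30.7 to 933) and Slc27a2 (5.44 against 0.065 CPM, from 1 maxillary count, 83.8-fold, 14.6 to 3345) had similarly large ratios. All 3 were as high or higher in the medial nasal library (22, 18.9 and 8.02 CPM). Tgfa, a ligand of the EGF receptor, had 13.5 against 1.43 CPM (9.47-fold, 6.1 to 15.4). On the maxillary side Shisa3, a gene of the shisa family, had 0.99 against 13.8 CPM (14-fold, 8.42 to 24.9).

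Lists of several cell types and states held few or no genes at least 2-fold apart. Over all genes tested 2.93% were called, and lists this small can hold none at that share. No gene was called among 25 tested endothelial, 4 leukocyte, 19 erythroid, 27 hypoxia and glycolysis and 35 cell cycle genes. Among stress genes 1 of 18 was called (Gadd45g), and among imprinted genes 1 of 35 (Asb4, 32.4 against 84.6 CPM). None of the 15 Hox genes on the list, which mark more posterior arches, reached 5 CPM in either library. Xist (1189.9 and 1092 CPM) and the Y-linked Ddx3y (34.6 and 29.6 CPM) were expressed in both libraries, and neither was called.

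The medial nasal and mandibular libraries, which share no library with the choice of genes, gave a second nasal to first arch comparison. Whether their tissue came from the same embryos is not stated. Of the 219 genes higher in the lateral nasal process, 194 reached 5 CPM in this pair, and 147 of these (75.8%) were at least 2-fold higher in the medial nasal process, against 3.9% of all 12218 genes tested there. Another 45 were neither and 2 were higher in the mandibular process. Of the 129 genes higher in the maxillary process, 109 reached 5 CPM, and 52 of these (47.7%) were at least 2-fold higher in the mandibular process, against 1.71% of all genes tested there. Another 54 were neither and 3 were higher in the medial nasal process. Both shares leave out genes under 5 CPM in MNP and Md, such as Wnt16, Cryaa and Cyp26c1, which could not be called there. With such genes counted in, the 147 and 52 genes are out of all 219 and 129, which makes lower shares. The median log2 difference, medial nasal minus mandibular, was 1.63 for the lateral nasal genes and -0.77 for the maxillary genes, against 0.02 over all genes tested in this pair.

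Most lateral nasal genes tested in this pair were thus also higher in MNP than in Md (75.8%, against 3.9% of all genes). For the maxillary genes the share higher in Md was lower (47.7%), as was the share of all genes (1.71%). The difference between both shares was not tested. A gene higher in MNP than in Md can still lie far below its LNP level, as Pax7 did (113 CPM in LNP, 21.6 CPM in MNP). The ranks that follow include LNP and Mx, whose difference chose the genes, so they are partly fixed by that choice. The same counts over all genes tested were not made. Among the 219 lateral nasal genes, the highest of the 4 libraries was the lateral nasal one for 104, the medial nasal one for 110 and the mandibular one for 5. Only 26 stood at least 2-fold above each other library, among them Pax7 and Wnt16 (7.3 CPM against 1.13 in MNP and 0.585 CPM in Md). Among the 129 maxillary genes, the highest library was the maxillary one for 78, the mandibular one for 44 and the medial nasal one for 7, and the lateral nasal library was the lowest of the 4 for 84. For 20 of them the lateral nasal library lay at least 2-fold below each other library, among them Foxf1, Foxf2, Shox2 (8.1 CPM, against 34 in MNP and 27.8 CPM in Md) and Tbx3 (30.6 CPM, against 94 and 79.2 CPM). For 24 the maxillary library lay at least 2-fold above each other library, among them Cyp26c1 (0.757 CPM in MNP and 1.32 CPM in Md) and Gpr17.

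**Figure D5:**
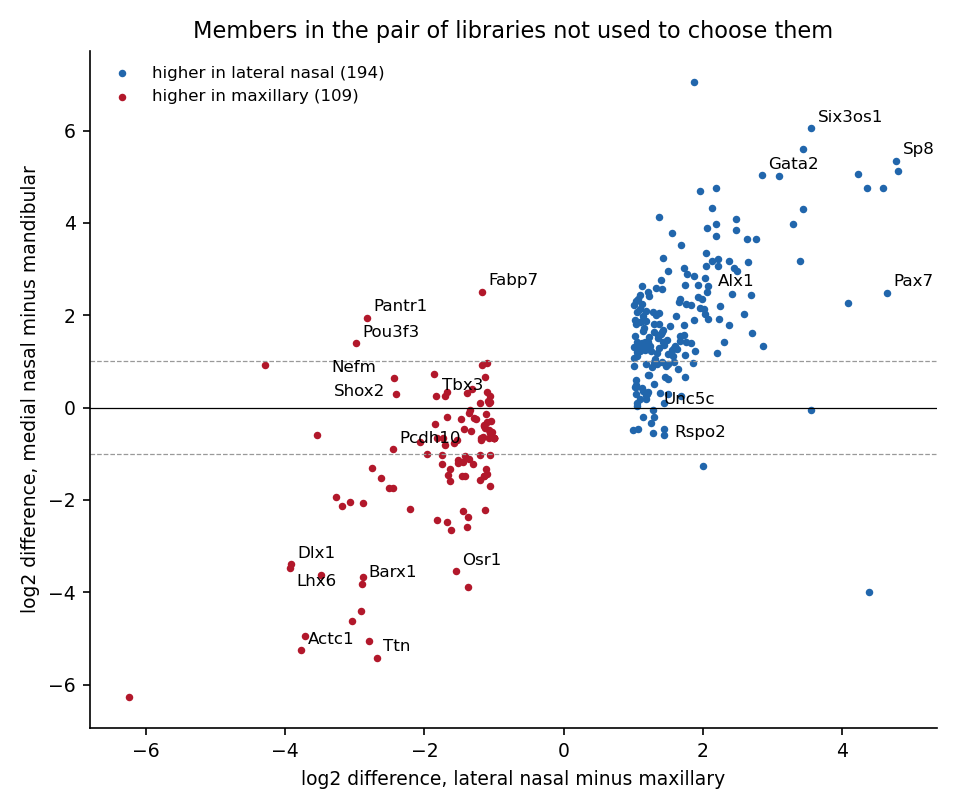
Log2 difference, medial nasal minus mandibular (y axis), of the genes that reached 5 CPM in that pair, against their log2 difference, lateral nasal minus maxillary (x axis), which chose them; dashed lines mark 2-fold. Most blue points (194 genes higher in the lateral nasal process) lie above the upper line, whereas the red points (109 genes higher in the maxillary process) spread around and below the lower line, with Pou3f3, Pantr1 and Fabp7 above the upper one.

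At the edge of the choice, the lateral nasal genes just inside the 2-fold limit were Rbm24 (5.44 against 2.47 CPM), Grm7 and Rprm, and those just outside were Shtn1 (5.69 against 2.6 CPM), Plce1 and Igfbp7. On the maxillary side copies of the U1 small nuclear RNA gene such as Rnu1a1 (70.4 against 142 CPM) lay just inside, and Pam (84.4 against 169 CPM), Gm37310 and Meis2 (103 against 206 CPM) just outside. Genes on both sides of the limit had nearly the same ratios. The U1 copies listed carry identical values. Counts of 11 lateral nasal and 12 maxillary genes were uncertain, with a posterior mean differing from the expected count by 10% or more. Among them were Gm28635 and the mitochondrial entry mt-Co3 on the lateral nasal side and Gm10240 and Gm26244 on the maxillary side, so no direction is drawn from these. Rnu1a1 stayed within the 10% limit, although its posterior standard deviation was 756 around a mean of 1220 counts in LNP. It was not called with the posterior mean count. With the posterior mean count in place of the expected count, 213 of the 219 and 117 of the 129 genes were called again. With TPM, which also divide by gene length, all 348 genes kept their direction, and 176 of the 219 and 103 of the 129 stayed 2-fold apart after adding 0.5 TPM.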

How the data were processed

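The libraries, 1 for each of the 4 facial processes, were prepared by the authors from DNase-treated total RNA with a stranded kit after removal of ribosomal RNA. Per the labels and the study's methods, single-end reads were aligned to mm10 with STAR, and RSEM 1.4.1 with GENCODE M4 gene models gave the expected count per gene. The authors deposited this estimated count, TPM and a posterior mean count with its standard deviation for each gene. Reads that fit more than 1 gene are shared out by RSEM, so near-identical copies have uncertain values.

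The 43346 mouse gene entries were used. The 26344 other entries, including 96 spike-ins, held 1 to 5 counts per library and were left out. Totals were 13216190 to 16163913 counts per library, and 3 counts, the limit that a count of 0 allows, correspond to 0.186 to 0.227 CPM. Symbols, biotypes and coordinates came from GENCODE M21 (GRCm38, the build of mm10) for 42462 IDs. The other 884 IDs carried 0.307 to 0.342% of all counts.

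Genes with 5 CPM or more in the lateral nasal or maxillary library were called at a 2-fold difference after adding 0.5 CPM. Folds in the text are ratios of CPM without this addition, with exact (Clopper-Pearson) 95% intervals from counts rounded to whole numbers. With 1 library per process no test was made. The procedure was tested on simulated counts. The genes compared, the gene lists and the rule for naming genes were chosen with earlier results of these data known. The rule took 5 marker genes, the 15 protein-coding genes with the largest difference and the 5 most abundant genes in each direction, up to 10 called and 4 uncalled genes of each list, up to 5 noncoding genes per direction, 3 genes on each side of the limit, Xist and Y-linked genes, and genes that went the other way in the medial nasal and mandibular pair. Fendrr and Foxl1, and list genes named for having 0 counts, were named after their values were seen. Some genes picked by the rule are not reported here. Promoter sequences came from RefSeq (GRCm38.p6), whose gene starts can differ from the GENCODE starts given in the text. Motifs were searched on both strands of the 250 bases before the gene start.

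Alternatives were factors from the trimmed mean of M values (edgeR 4.0.16), median-of-ratios size factors (DESeq2 1.42.0), totals of protein-coding genes, TPM with and without its median shift, the posterior mean count, a pseudocount of 0.1 or 2, a minimum of 1 or 20 CPM or none, a 3-fold limit, and removal of uncertain genes. Computations used Python 3.11.15, pandas 2.3.3 and scipy 1.17.1.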

Additional observations from a re-analysis of the deposited data

Results flagged for a closer look

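The 5 genes that differed at least 2-fold one way between the lateral nasal and maxillary libraries and at least 2-fold the other way between the medial nasal and mandibular libraries were looked at again. Each comparison had 1 library per side, and the difference between both comparisons was not tested. Pou3f3 had a log2 difference of -2.98, lateral nasal minus maxillary, and 1.39, medial nasal minus mandibular. Its neighbour Pantr1 had -2.83 and 1.95. Fabp7, a fatty acid binding protein gene of glia, had -1.17 and 2.51, from 44 counts in the lateral nasal and 104 counts in the maxillary library. Gm14288 had 1.9995 and -1.27, and an entry without a symbol (ENSMUSG00000090234.1) had 4.39 and -4.01. The counts of these last entries are among the uncertain ones.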

How the results depend on the processing

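No paired analysis was possible because each process had 1 library. The counts of 219 and 129 genes stayed within 1.5 times under both other library scalings, the total of protein-coding counts, TPM as deposited, the posterior mean count, both pseudocounts and without uncertain genes, at 158 to 244 genes higher in LNP and 100 to 142 higher in Mx. With TPM, 96 of the 219 and 62 of the 129 genes were called again, and 65 LNP genes (147 with the reported settings) were also higher in MNP than in Md. With the median shift of TPM removed, 143 genes were higher in LNP and 60 of them also in MNP. A minimum of 1 CPM gave 428 genes higher in LNP (265 also in MNP) and 251 higher in Mx (99 also in Md). A minimum of 20 CPM gave 63 (38 also in MNP) and 63 (26 also in Md), so that the excess of LNP genes was gone. No minimum gave 508 (295) and 290 (106), and a 3-fold limit 96 (63) and 55 (23). The genes tested numbered 15360 at 1 CPM, 8076 at 20 CPM, 43346 with no minimum and 11865 at the 3-fold limit. What lay behind these changes was not tested. Across the settings, 58.1 to 78.3% of the LNP genes tested in the MNP and Md pair were also higher in MNP, and 36.5 to 53.1% of the Mx genes also in Md. Of 560 list counts under alternatives 43 moved by over 1.5 times. Of 2304 values of named genes 131 moved by more than the half-width of their counting interval, and no called gene reversed. Depth limits the low end: 92 and 43 of the genes lie under 10 CPM, and the lowest lower bounds of the intervals were 1.49- and 1.59-fold. Variation between embryos was not measured.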
